A study of Mus musculus with 27 samples.

Results

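The comparison described here asks which genes of the mouse rectum responded to radiation differently at 3 days and at 4 h post-irradiation (PI). For each gene, the radiation effect was the log2 difference between irradiated and sham-irradiated mice of the same time, and the effect at 4 h was subtracted from the effect at 3 days. It used 12 of the 27 libraries of the series, each from 1 mouse per the study's methods: irradiated at 3 days PI, sham at 3 days, irradiated at 4 h PI and sham at 4 h, with 3 mice in each group. All were female C57BL/6 mice (the substrain C57BL/6J in the study's methods), aged 8 to 10 weeks, and no genetic change is given in the labels. The irradiated mice received a single X-ray dose of 25 Gy to the lower pelvis with the rest of the body behind lead, and the sham mice were anesthetized and not exposed. Levels are given as CPM, the usual unit of read counts scaled by library size, with TMM factors between libraries. The 12 libraries held 19124092 to 21527405 counts each, and 14962 of the 19690 genes in the table had enough counts to be tested. A gene was called where its adjusted p was under 0.05 in edgeR's quasi-likelihood test with Benjamini-Hochberg adjustment over all tested genes. The difference of effects was called for 2623 of the 14962 genes (17.5%), of which 1435 (9.59%) were higher and 1188 (7.94%) lower at 3 days. As a model the groups are limited to 1 high dose given to 1 region. Epithelium, distal colon and smooth muscle were visible in every library, with 1389 to 1956 CPM of the epithelial adhesion gene Epcam, 1219 to 4063 CPM of the distal colon carbonic anhydrase Car1 and 450 to 966 CPM of the smooth muscle actin Acta2. The distal colon gene Hoxb13 had 297 to 450 CPM. Cdx2, another epithelial marker, varied from 1.91 to 30.4 CPM. That the tissue is rectum rests on the labels.

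The rectal epithelium renews itself from dividing cells in the crypts, and these cells are the most sensitive to radiation. DNA breaks stabilize p53, a transcription factor that raises genes of cell cycle arrest, repair and death within hours, while checkpoints stop DNA synthesis and mitosis. Cells that survive re-enter the cell cycle in the following days, and the surrounding stroma supplies growth factors and matrix. The mature colonocytes at the surface absorb sodium and water, burn fatty acids in their mitochondria and detoxify compounds of the lumen.

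Most of the 2623 genes were called for radiation at a single time. In 1408 of them (53.7%, or 9.41% of all genes tested) the effect was called at 3 days and not at 4 h, and in 574 (21.9%, or 3.84% of all) at 4 h and not at 3 days. A further 368 (14%, or 2.46% of all) had no called effect at either time, although the difference between the times was called. Effects were called at both times in the same direction for 69 genes (2.63%, or 0.461% of all) and in opposite directions for 204 genes (7.78%, or 1.36% of all genes tested). Of these 204 genes, 154 (1.03% of all) were higher in irradiated mice at 3 days and lower at 4 h, and 50 (0.334% of all) were lower at 3 days and higher at 4 h. Taken singly, the radiation effect was called for 3595 genes (24%) at 3 days, 1954 higher (13.1%) and 1641 lower (11%), and for 1780 genes (11.9%) at 4 h, 888 higher (5.94%) and 892 lower (5.96%). Under the stricter thresholds of an adjusted p below 0.01 with a log2 size above 1, the difference was called for 625 genes (4.18%), 440 higher (2.94%) and 185 lower (1.24%). At the threshold, Lzts1 lay just inside with an adjusted p of 0.0497 and Bnip3l just outside with 0.0501. Irradiated and sham values did not overlap, in either direction, for 5962 tested genes (39.8%) at 3 days and 4964 (33.2%) at 4 h. Lack of overlap in a gene below is thus common, and part of the naming rule required it.

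**Figure D1:**
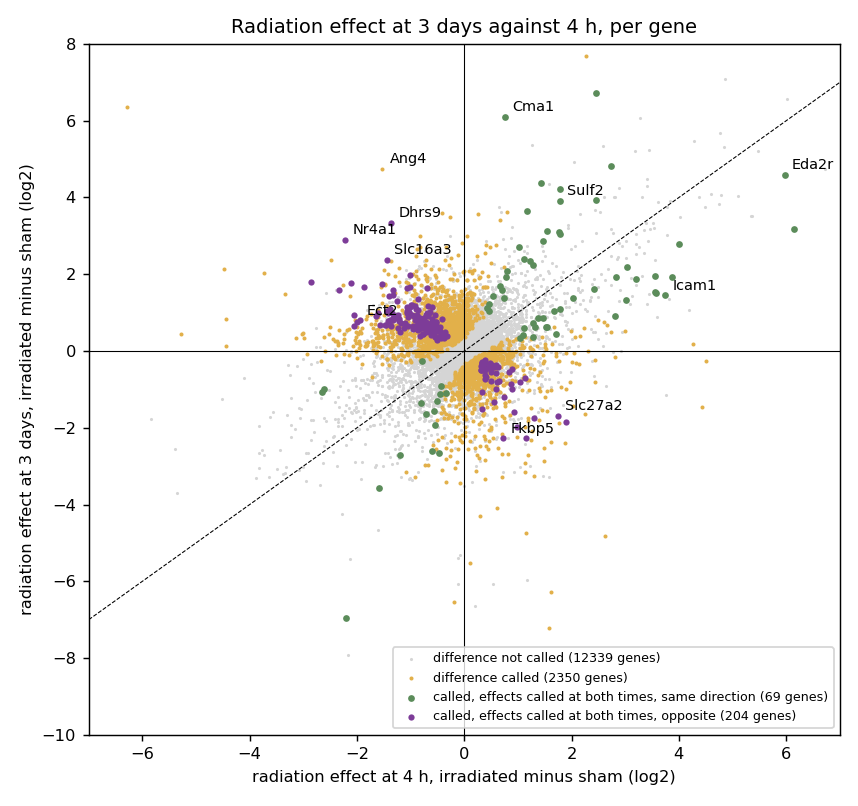
Each point is 1 of the 14962 tested genes, with its radiation effect (log2, irradiated minus sham) at 3 days on the vertical axis and at 4 h on the horizontal axis. The dashed line marks equal effects. The 204 genes with opposite called effects lie in the upper left and lower right, the p53 target Eda2r lies far to the upper right (4.59 at 3 days and 5.97 at 4 h), and Cma1 and Ang4 stand high at 3 days.

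The sham groups of both times entered the comparison as well, and they differed in 229 genes (1.53%), 58 higher (0.388%) and 171 lower (1.14%) at 3 days. Of the 2623 called genes, 118 (4.5%) were among these, and of the 204 opposite genes 14 (6.86%). These shares count calls only, and the opposite genes as sets also shifted between the shams, as given with the other times below. The sham count rested on single libraries: it was 1439 without sham replicate 1, 13 without replicate 2 and 5 without replicate 3 of 3 days, 5 without sham replicate 1 and 6 without sham replicate 2 of 4 h, and 100, 96, 125 and 110 without irradiated replicates 1, 2 and 3 of 3 days and irradiated replicate 2 of 4 h. The irradiated groups of 3 days and 4 h differed in 4118 genes (27.5%), 2201 higher (14.7%) and 1917 lower (12.8%) at 3 days. Among them were 203 of the 204 opposite genes, a number nearly fixed by how these genes were chosen from the same libraries. The number of opposite genes also depended on single libraries: it was 113 without irradiated replicate 1 at 3 days, 103 without irradiated replicate 2 at 3 days, 114 without irradiated replicate 1 at 4 h and 124 without sham replicate 2 at 4 h. The count of 2623 fell to 1710 without irradiated replicate 1 and to 1730 without irradiated replicate 2 at 3 days, and the effect at 3 days alone then had 2300 and 2311 calls. Scaled by total counts only, 179 of 208 opposite genes were higher at 3 days.

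Genes of mitosis moved nearly as 1 group. Of the 51 genes of mitosis and the spindle that were tested, 45 were higher and 1 was lower in the difference of effects, with a median of 2.18 on the log2 scale, against 0.03 over all tested genes. At 3 days, 5 rose and 1 fell in irradiated rectum (median effect 0.32), and at 4 h 1 rose and 47 fell (median effect -1.92). At 3 days the list as a whole was thus no longer below sham. Summed over the list, the level was 1589 to 1807 CPM in irradiated rectum at 3 days, against 1066 to 1549 CPM in sham rectum, and 198 to 393 CPM in irradiated rectum at 4 h, against 744 to 1149 CPM in sham rectum. The groups overlapped at neither time. The sums of the sham mice were higher at 3 days than at 4 h, with an overlap at sham replicate 2 of 3 days, and edgeR called no member between the shams (median 0.59), with 31 members at an unadjusted p under 0.05 and 9 called by DESeq2.

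Cdk1, whose kinase activity starts mitosis, had 33.2, 32.6 and 34.2 CPM in irradiated rectum at 3 days, against 25.8, 18.7 and 26.4 CPM in sham rectum. It had 2.47, 3.62 and 4.98 CPM in irradiated rectum at 4 h, against 14.3, 11.7 and 19.04 CPM in sham rectum. Irradiated values were the higher ones at 3 days and the lower ones at 4 h, without overlap, but the effect was called at 4 h (-2.02 ± 0.24 SE, adjusted p = 0.000278) and not at 3 days (0.50 ± 0.21 SE, adjusted p = 0.114). The difference of effects was 2.52 ± 0.32 (SE, adjusted p = 0.0007403). Cyclin A2 (Ccna2), the mitotic kinases Aurka and Aurkb and the proliferation antigen Mki67 had the same calls, although irradiated and sham values overlapped at 3 days for Aurka and Mki67, with differences of 2.38, 2.45, 2.01 and 2.22, each called, effects of -1.92, -1.98, -1.60 and -1.96 at 4 h, each called, and uncalled effects of 0.26 to 0.47 at 3 days. Kif4, a motor that binds mitotic chromosomes, had the smallest p of the list, with a difference of 2.18 ± 0.22 (SE, adjusted p = 0.000199). Cdc25c, the phosphatase that activates Cdk1, was almost unread after 4 h, with 5 reads summed over the 3 irradiated mice and 118 over the sham mice.

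In 4 members the effects were called in opposite directions: Ect2, Kif23, Incenp and Ube2c. Ect2 (ENSMUSG00000027699, chr3:26996144-27052800, minus strand, mm9 coordinates of GENCODE M1), the exchange factor that starts the cleavage furrow in cytokinesis, had 52.7, 51.9 and 51.9 CPM in irradiated rectum at 3 days, against 29.7, 26.8 and 33.5 CPM in sham rectum. It had 3.27, 5.98 and 6.997 CPM in irradiated rectum at 4 h, against 18.1, 19.6 and 25.04 CPM in sham rectum. Every irradiated mouse was thus above every sham mouse at 3 days and below every sham mouse at 4 h. The effects were 0.80 at 3 days (adjusted p = 0.0122) and -1.95 at 4 h (adjusted p = 0.000165), and their difference was 2.74 ± 0.29 (SE, adjusted p = 0.000252). Kif23, a kinesin of the central spindle, had effects of 0.61 at 3 days and -1.13 at 4 h, Incenp, the scaffold of the chromosomal passenger complex, 0.55 and -0.87, and Ube2c, the ubiquitin-conjugating enzyme of the anaphase-promoting complex, 1.0 and -1.34. The single member that was lower in the difference was Pttg1, or securin, which holds separase inactive until anaphase. It had 14.3, 12.8 and 12.3 CPM in irradiated rectum at 3 days, against 15.9, 18.3 and 18.1 CPM in sham rectum, and 21.3, 17.8 and 18.4 CPM in irradiated rectum at 4 h, against 14.9, 16.6 and 16.7 CPM in sham rectum. Its effect was called at 3 days (-0.41) and not at 4 h (0.26), so it did not share the fall at 4 h.

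The promoters of the mitotic genes are shown because the list moved nearly as 1 unit. Many promoters of late cell cycle genes are known to carry a CHR element (TTTGAA) near a CCAAT box, where the DREAM complex and the factors B-Myb and FoxM1 act, and many genes of DNA replication carry E2F sites instead. The sequences below come from RefSeq (GRCm38.p6, a later build than the mm9 of the files) and run from 250 bases before to 50 bases after the gene start, 5′ to 3′ on the strand of the gene, all on the minus strand. They are Ect2 (chr3:27153829-27154128), Kif23 (chr9:61946750-61947049), Cdk1 (chr10:69352863-69353162) and, for the replication genes, Mcm3 (chr1:20820263-20820562). Kif23 and Mcm3 were chosen after their values were seen. Capitals mark CHR elements, CCAAT boxes (CCAAT, or ATTGG on the other strand) and, in Mcm3, 2 E2F sites (TTTGGCGC, and TTTCCCGC read as GCGGGAAA).
Ect2: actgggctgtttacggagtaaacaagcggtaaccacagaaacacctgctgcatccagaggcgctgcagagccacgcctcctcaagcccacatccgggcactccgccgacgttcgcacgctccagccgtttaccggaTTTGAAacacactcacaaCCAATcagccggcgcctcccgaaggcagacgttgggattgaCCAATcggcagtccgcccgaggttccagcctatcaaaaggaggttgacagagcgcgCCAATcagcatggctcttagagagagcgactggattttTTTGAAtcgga
Kif23: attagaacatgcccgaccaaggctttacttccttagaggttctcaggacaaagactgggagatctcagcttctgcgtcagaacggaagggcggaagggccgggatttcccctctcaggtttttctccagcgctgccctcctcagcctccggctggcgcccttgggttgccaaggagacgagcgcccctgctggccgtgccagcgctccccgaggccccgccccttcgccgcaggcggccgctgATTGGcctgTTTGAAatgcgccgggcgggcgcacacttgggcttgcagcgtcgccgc
Cdk1: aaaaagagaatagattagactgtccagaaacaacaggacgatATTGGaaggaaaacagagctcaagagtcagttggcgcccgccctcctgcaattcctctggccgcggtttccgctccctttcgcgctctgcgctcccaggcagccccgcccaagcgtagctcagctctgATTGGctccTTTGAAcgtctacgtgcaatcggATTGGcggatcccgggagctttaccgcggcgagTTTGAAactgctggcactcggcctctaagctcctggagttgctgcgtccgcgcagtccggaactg
Mcm3: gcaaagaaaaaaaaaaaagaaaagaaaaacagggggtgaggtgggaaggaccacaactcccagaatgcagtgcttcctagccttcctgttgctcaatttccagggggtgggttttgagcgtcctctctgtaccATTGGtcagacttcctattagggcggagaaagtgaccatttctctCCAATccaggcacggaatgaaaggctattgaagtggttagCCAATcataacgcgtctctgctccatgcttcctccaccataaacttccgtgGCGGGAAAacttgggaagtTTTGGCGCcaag

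For the 4163 genes with more than 1 listed start, such as Ect2 with 2, only the first listed start was used. In Ect2 a CHR element began at position -114 and another at 40, counted from that start, with CCAAT boxes at -96, -55 and 2. In Kif23 the CHR element began at 3 and the CCAAT box at -7. In Cdk1 the CHR elements began at -71 and -15 and the CCAAT boxes at -208, -80 and -48. Searched on both strands, the CHR letters stood in 31 of the 42 mitotic promoters found in the RefSeq table (73.8%), against 18.1% of all 27025 promoters of this length. The CCAAT letters stood in 31 as well (73.8%, against 37.9% of all), and both in 25 (59.5%, against 7.12% of all). Among the replication genes either E2F form stood in 13 of 40 promoters (32.5%, against 1.63% of all), the CHR letters in 7 (17.5%) and the CCAAT letters in 24 (60%). The lists hold tested genes only. In the 10746 promoters of genes tested the shares were 12.2% for CHR, 38.3% for CCAAT, 5.03% for both and 2.89% for either E2F form. Of the 154 opposite genes higher at 3 days, 114 had a promoter, and the same shares were 12.3%, 44.7%, 7.89% and 10.5%. Of the 50 lower at 3 days, 39 had a promoter, with 10.3%, 28.2%, 2.56% and 2.56%. The CHR shares of both opposite sets were thus near that of all genes tested. A link between motifs and effects was not tested. In Mcm3 the E2F letters began at 20 and 39. A match of letters is a description of the window and not a measured binding site.

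Genes of DNA replication and of the entry into S phase moved in the same direction, and part of them rose above sham by 3 days. Of 47 tested, 39 were higher and 0 lower in the difference, with a median of 1.51. At 3 days 19 rose and 0 fell (median 0.48), at 4 h 0 rose and 35 fell (median -0.84), and 12 had opposite called effects. Their summed level was 1561, 1599 and 1437 CPM in the irradiated mice of 3 days, against 1054, 1147 and 1066 CPM in sham mice. It was 473, 652 and 687 CPM in the irradiated mice of 4 h, against 1066, 1158 and 861 CPM in sham mice. The 6 sham mice of both times thus covered one range, and irradiated mice lay above it at 3 days and below it at 4 h.

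Mcm3 (ENSMUSG00000041859, chr1:20793055-20810359, minus strand), a subunit of the replicative helicase, had 54.6, 67.04 and 53.9 CPM in irradiated rectum at 3 days, against 28.03, 41.8 and 29.8 CPM in sham rectum. It had 9.61, 15.4 and 14.1 CPM in irradiated rectum at 4 h, against 37.4, 42.9 and 22.3 CPM in sham rectum. Its values did not overlap between irradiated and sham mice at either time, and its difference of effects was 2.21 ± 0.34 (SE, adjusted p = 0.00194). E2f1 (ENSMUSG00000027490, chr2:154385143-154395628, minus strand), the transcription factor that turns on genes of S phase, had 14.2, 12.6 and 14.03 CPM in irradiated rectum at 3 days, against 5.899, 7.79 and 7.46 CPM in sham rectum. It had 1.21, 2.11 and 3.02 CPM in irradiated rectum at 4 h, against 9.81, 9.75 and 6.89 CPM in sham rectum. Here too each irradiated mouse was above every sham mouse at 3 days and below every sham mouse at 4 h (difference 3.01 ± 0.38 SE, adjusted p = 0.000658). Its relative E2f2 had effects of 1.45 at 3 days and -1.40 at 4 h, and its sham values of 4 h spread widely (10.6, 18.4 and 6.45 CPM). Chaf1a, the large subunit of the chromatin assembly factor that loads histones behind the fork, had effects of 0.92 and -1.26 and the smallest p of the list (difference 2.19 ± 0.22 SE, adjusted p = 0.000151). Dbf4, the activator of the kinase that fires replication origins, had 0.59 and -1.24. Pola1, the catalytic subunit of DNA polymerase alpha, fell at 4 h (-1.85) and at 3 days had 38.4, 32.9 and 34.2 CPM in irradiated rectum, against overlapping values of 33.5, 37.04 and 25.4 CPM in sham rectum.

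**Figure D2:**
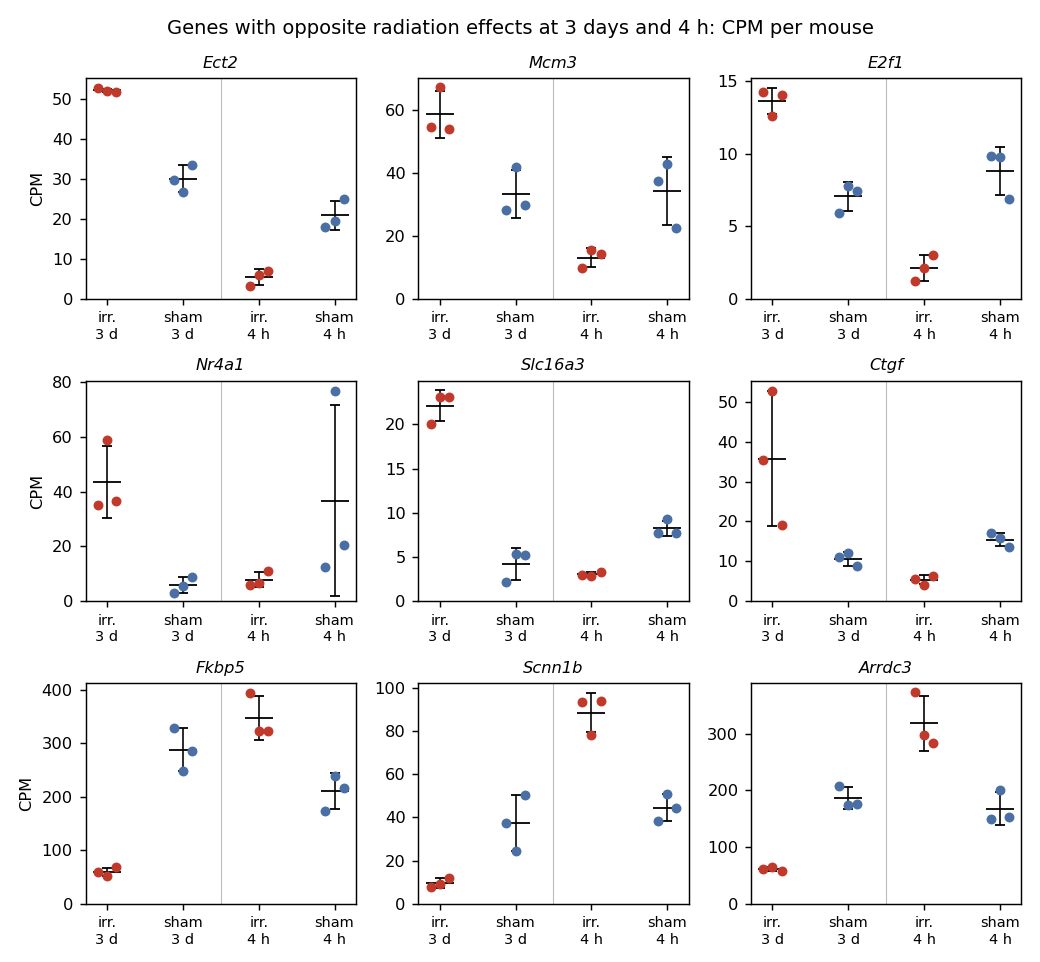
CPM of 9 genes with opposite called effects in each of the 12 mice, irradiated in red and sham in blue, with the mean (bar) and SD. In the 6 genes from Ect2 to Ctgf irradiated mice were above sham mice at 3 days and below at 4 h in the mean, and in Fkbp5, Scnn1b and Arrdc3 the reverse held.

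Genes of DNA repair and damage signaling followed in part. Of 43 tested, 21 were higher and 0 lower in the difference (median 0.81), with 8 up and 1 down at 3 days, 1 up and 19 down at 4 h, and 6 opposite. Rad54l, a motor protein of homologous recombination, had 9.88, 6.81 and 7.76 CPM in irradiated rectum at 3 days, against 5.24, 3.602 and 4.24 CPM in sham rectum. It had 1.01, 1.91 and 1.46 CPM in irradiated rectum at 4 h, against 5.53, 4.24 and 3.92 CPM in sham rectum. The groups did not overlap at either time (difference 2.54, adjusted p = 0.00167). Timeless, which protects stalled forks, had effects of 0.67 at 3 days and -1.48 at 4 h, and H2afx, the histone that is phosphorylated around breaks, 0.95 and -0.71. Fancd2, of the crosslink repair pathway, was called at 4 h (-1.65) and not at 3 days (0.55, adjusted p = 0.117). Where repair genes were called at 4 h, they were thus mostly lower. In bulk tissue, fewer cells of a type and less RNA per cell cannot be told apart, here and in all results below.

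Many targets of p53 rose at both times, and where the difference was called in the arrest and death lists it was mostly lower at 3 days. Of 18 targets of arrest and feedback, 11 rose and 1 fell at 3 days (median 1.0) and 13 rose and 1 fell at 4 h (median 1.71). The difference was called lower for 6 and higher for 1 (median -0.44). Of 13 targets of cell death, 7 rose and 1 fell at 3 days, and 8 rose and 1 fell at 4 h. The difference in this list was lower for 5 and higher for 1 (median -0.49). That count of 5 was 2 or 3 with FPKM values or with all 27 libraries in 1 fit. Of 16 targets of repair and metabolism, 9 rose at 3 days and 8 at 4 h, with 4 higher and 3 lower in the difference (median 0.01). The contrast between these lists was not tested.

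Trp53, the gene of p53 itself, had 52.6, 57.9 and 51.7 CPM in irradiated rectum at 3 days, against 30.95, 42.1 and 40.4 CPM in sham rectum. It had 44.2, 57.7 and 46.5 CPM in irradiated rectum at 4 h, against 36.3, 30.4 and 31.7 CPM in sham rectum. Irradiated mice were above all sham mice at both times, and the effects of 0.52 and 0.59 had no called difference (difference -0.08 ± 0.19 SE, adjusted p = 0.814). Mdm2, the ubiquitin ligase that removes p53, had 134, 154 and 173 CPM in irradiated rectum at 3 days, against 57.6, 45.4 and 48.4 CPM in sham rectum. It had 254, 262 and 329 CPM in irradiated rectum at 4 h, against 46.7, 53.8 and 57.4 CPM in sham rectum. Both effects were large (1.60 at 3 days, 2.42 at 4 h), and the one at 3 days was smaller by -0.82 ± 0.20 (SE, adjusted p = 0.0149). Sesn2, a stress-induced inhibitor of mTORC1, had 38.1, 39.3 and 43.4 CPM in irradiated rectum at 3 days, against 10.1, 9.25 and 13.3 CPM in sham rectum. It had 81.5, 97.8 and 107 CPM in irradiated rectum at 4 h, against 10.8, 8.43 and 11.9 CPM in sham rectum. Its sham values agreed across the times, and its irradiated values at 3 days were all below those at 4 h (difference -1.32, adjusted p = 0.00293).

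Other members of the arrest and feedback list varied at 3 days. Ppm1d, the phosphatase Wip1 that switches off damage signals, was called at 4 h (1.25) and not at 3 days (0.31, adjusted p = 0.0518), and Trp53inp1, a cofactor of p53 in arrest and death, had effects of 0.44 and 1.71. Sesn1 fell at 3 days (-0.70, adjusted p = 0.003697) after an uncalled value of 0.41 at 4 h. Cdkn1a, the inhibitor p21 of cyclin-dependent kinases, was called at 4 h (1.09) and not at 3 days (0.62), but its difference of -0.47 ± 0.31 (SE) was not called (adjusted p = 0.323). Plk3, a stress-induced kinase, was the 1 arrest gene with opposite effects, 1.09 at 3 days and -1.39 at 4 h. Among the death genes, Eda2r, a receptor of the TNF family, had 56.3, 67.3 and 67.7 CPM in irradiated rectum at 3 days, against 2.42, 2.34 and 3.17 CPM in sham rectum. It had 120.0, 129.8 and 165 CPM in irradiated rectum at 4 h, against 2.87, 1.36 and 2.38 CPM in sham rectum. It was still far above every sham mouse at 3 days, with a smaller effect than at 4 h (4.59 and 5.97, difference -1.38, adjusted p = 0.0104). Aen, a nuclease of apoptosis, had 2.20 and 3.03, and the death receptor Fas 0.17, not called, and 1.5. Bax and Bbc3, which open the mitochondrial path of apoptosis, rose at both times (1.89 and 1.47 for Bax, 2.56 and 3.34 for Bbc3), and neither difference was called (0.42 and -0.79), although that of Bax was 0.62 and called without sham replicate 3 at 3 days. The difference of Bbc3 was -1.03 to -0.34 over the alternatives, and its lowest adjusted p among them, 0.0466, was under the threshold. Zmat3, an RNA-binding protein, rose at both times as well (2.22 and 1.70), with a difference that was called, at 0.71, only without irradiated replicate 3 at 4 h.

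Sulf2, a sulfatase of the cell surface that releases growth factors from heparan sulfate, went the other way. It had 138, 179.5 and 147 CPM in irradiated rectum at 3 days, against 10.5, 8.08 and 12.1 CPM in sham rectum. It had 25.3, 38.2 and 68.8 CPM in irradiated rectum at 4 h, against 14.1, 13.7 and 10.8 CPM in sham rectum. All irradiated mice were above all sham mice, and those of 3 days were the highest of the 12 (difference 2.14 ± 0.41 SE, adjusted p = 0.00535). Ak1, an adenylate kinase, was called at 3 days (1.66) and not at 4 h (0.35), and its difference of 1.3 was not called when the sham mice of both times were taken as 1 group.

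**Figure D3:**
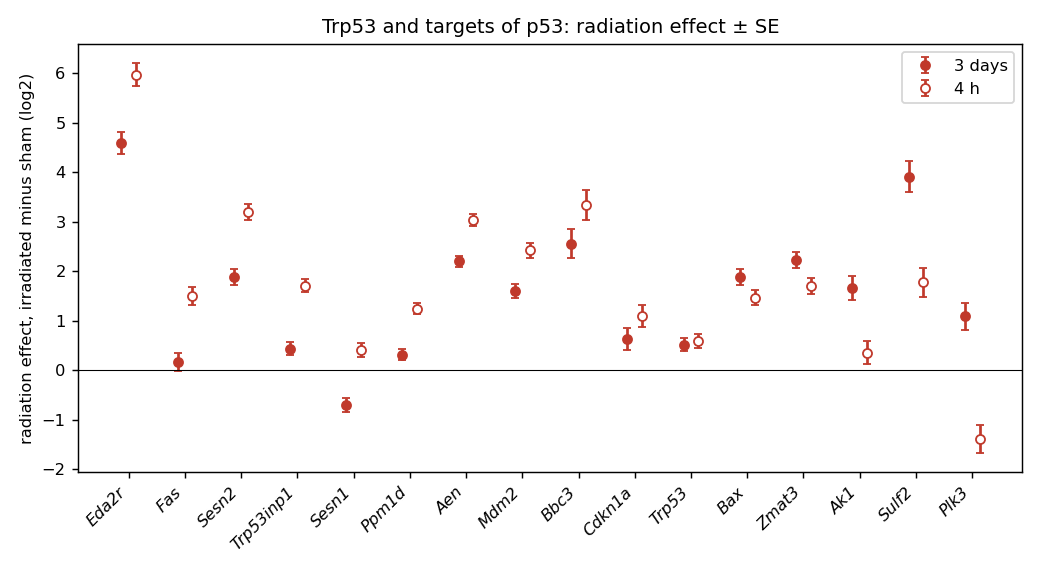
Radiation effect (log2, irradiated minus sham, ± SE, 3 mice per group) of Trp53 and 15 targets of p53 at 3 days (filled) and 4 h (open), ordered by the difference of effects. The open circle lies above the filled one for the genes at the left, such as Eda2r (5.97 at 4 h), and below it for Sulf2 and Plk3 at the right.

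Genes of growth factor signaling stood higher at 3 days than at 4 h. Of 22 EGF ligands and feedback genes of the ERK kinase pathway, 10 were higher and 2 lower in the difference (median 0.90), with 13 up and 2 down at 3 days (median 1.15) and 2 up and 2 down at 4 h (median 0.03). Areg, the EGF receptor ligand amphiregulin, had 96.9, 142 and 125 CPM in irradiated rectum at 3 days, against 14.9, 21.1 and 21.5 CPM in sham rectum. It had 39.1, 20.2 and 26.5 CPM in irradiated rectum at 4 h, against 29.4, 46.6 and 82.6 CPM in sham rectum. The irradiated mice of 3 days stood above all others, and the sham mice of 4 h lay above those of 3 days (sham difference -1.46, adjusted p = 0.0507). The difference of effects was 3.55 ± 0.47 (SE, adjusted p = 0.000933). The phosphatase Dusp6 and the inhibitor Spry4, which dampen ERK signaling, and the transcription factor Etv5, which ERK induces, rose at 3 days (2.07, 1.86 and 1.72), against uncalled values of -0.90, -0.24 and -0.80 at 4 h. Dusp4, another such phosphatase, was the member with opposite called effects (1.16 at 3 days and -1.06 at 4 h). Erbb3, a receptor of the same family, was lower in the difference (-0.82, adjusted p = 0.0101), with a fall at 3 days (-0.60).

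Immediate early genes, the first transcripts to answer growth factors and stress, were called higher in the difference for 10 members, and part of this lay in the controls. Of 25, 10 were higher, 1 lower and 14 not called in the difference (median 1.33), 8 rose and 1 fell at 3 days and 0 rose and 5 fell at 4 h. Between the shams of 3 days and 4 h the list had a median of -0.73, with 1 member called lower. Counted from the sham mean of 4 h, its mean log2(CPM + 0.5) was 0.14 to 0.38 in irradiated mice of 3 days, within the -0.60 to 0.42 of the sham mice of 4 h, and -1.04 to -0.38 in the sham mice of 3 days. Nr4a1, an orphan nuclear receptor, had 35.1, 58.8 and 36.6 CPM in irradiated rectum at 3 days, against 2.92, 5.74 and 8.73 CPM in sham rectum. It had 5.84, 6.74 and 11.1 CPM in irradiated rectum at 4 h, against 12.6, 76.7 and 20.6 CPM in sham rectum. Sham replicate 2 of 4 h was far above its group, and the sham groups themselves differed (-2.66, adjusted p = 0.0482), so the opposite effects of 2.90 and -2.22 include a fall between the shams. Jund, a subunit of the AP-1 factor, had 739, 1029.9 and 847 CPM in irradiated rectum at 3 days, against 223, 503 and 419.7 CPM in sham rectum. It had 342, 308 and 244 CPM in irradiated rectum at 4 h, against 446, 594 and 749 CPM in sham rectum. Neither time showed overlap between irradiated and sham mice (difference 2.19, adjusted p = 0.00315). Maff, a small Maf factor, and Cyr61, a secreted matricellular protein, were called at 3 days (1.01 and 2.37) and not at 4 h (-0.67 and -0.36). Fosb was called at 4 h (-4.48) and not at 3 days (2.15), from sham values at 4 h of 2.11, 30.3 and 11.6 CPM.

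Among the heat shock genes, 7 of 16 were higher and 0 lower in the difference (median 0.47), a count that was 4 without irradiated replicate 1 or 2 or sham replicate 3 of 3 days, and without irradiated replicate 1 or 2 or sham replicate 1 or 2 of 4 h. Hspb1, a small chaperone that protects actin, had 61.9, 78.2 and 64.9 CPM in irradiated rectum at 3 days, against 29.9, 20.3 and 23.1 CPM in sham rectum. It had 39.8, 28.2 and 44.4 CPM in irradiated rectum at 4 h, against 39.4, 40.3 and 36.6 CPM in sham rectum. Only the 3-day groups were apart (difference 1.53, adjusted p = 0.00224). Hspa1a, an inducible Hsp70 with a near-identical copy that can share its reads, had effects of 2.15 and, not called, -0.47. Hspa4l, a co-chaperone of Hsp70, had opposite effects (0.40 at 3 days and -0.82 at 4 h).

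Most genes of collagen and scar matrix rose at 3 days, and few were called at 4 h. Of 41 genes of collagen and scar matrix, 24 were higher and 0 lower in the difference (median 1.13), with 30 up and 0 down at 3 days (median 0.89) and 1 up and 2 down at 4 h (median -0.14). Part of the contrast lay in the controls: the sham mice of 3 days were lower than those of 4 h for 7 members and higher for 0 (median -0.52). The smooth muscle list moved with them, with 6 of 15 members lower in the sham mice of 3 days (median -0.76). Its summed level was 4165 to 5546 CPM in irradiated mice of 3 days, against 3321 to 4582 CPM in sham mice, and 5375 to 7408 CPM in irradiated mice of 4 h, against 6031 to 6259 CPM in sham mice. The part of muscle or wall content in the matrix result was not tested.

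Col1a1, a chain of type I collagen, had 179.9, 138 and 101 CPM in irradiated rectum at 3 days, against 41.1, 45.8 and 51.2 CPM in sham rectum. It had 41.5, 48.97 and 86.1 CPM in irradiated rectum at 4 h, against 79.7, 76.2 and 92.7 CPM in sham rectum. Irradiated mice were above all sham mice at 3 days, the groups of 4 h overlapped, and sham values were higher at 4 h (difference 2.09 ± 0.36 SE, adjusted p = 0.00298). Mmp2, a protease that cuts type IV collagen, had 40.9, 43.9 and 37.4 CPM in irradiated rectum at 3 days, against 13.7, 13.7 and 16.9 CPM in sham rectum. It had 14.3, 16.9 and 20.6 CPM in irradiated rectum at 4 h, against 17.1, 19.2 and 18.9 CPM in sham rectum. Here the sham groups lay close together (-0.32, adjusted p = 0.216) and the irradiated mice of 3 days stood far above all other mice, with a difference of 1.56 ± 0.20 (SE, adjusted p = 0.0007101). Loxl1, a crosslinker of elastic fibres, and Col12a1, a collagen on the surface of fibrils, had differences of 1.67 and 2.06, and in both the sham mice of 3 days were lower than those of 4 h (-0.83 and -1.05, both called). Tnc, the matrix protein tenascin C of healing wounds, had opposite effects (1.16 at 3 days and -0.68 at 4 h) and a called sham difference of -0.95.

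Niche signals from the stroma made a smaller group, of which 12 rose and 1 fell at 3 days and 0 rose and 3 fell at 4 h, with 11 of 31 higher and 1 lower in the difference (median 0.82), or 6 higher without irradiated replicate 1 at 3 days and 7 without irradiated replicate 2 at 4 h. Grem1, the BMP antagonist made around the crypt base, had 46.3, 49.6 and 45.5 CPM in irradiated rectum at 3 days, against 25.7, 16.7 and 27.2 CPM in sham rectum. It had 18.7, 24.2 and 25.3 CPM in irradiated rectum at 4 h, against 34.6, 35.1 and 36.3 CPM in sham rectum. Every irradiated mouse was above the sham mice at 3 days and below them at 4 h (difference 1.66, adjusted p = 0.001197). The ligands Bmp4 and Bmp7, which Grem1 can hold back, rose at 3 days too (0.83 and 1.75), against uncalled values of -0.53 and -0.62 at 4 h. Nrg1, a ligand of the ERBB receptors, was low and had an effect of 1.94 at 3 days. Ctgf and Il33, which are not in the niche list, had opposite effects: Ctgf, a target of the YAP coactivator, 1.74 at 3 days and -1.53 at 4 h, and the alarmin Il33 0.74 and -2.0. Kdr, the VEGF receptor of endothelium, rose at 3 days (1.34) and had an uncalled -0.64 at 4 h, and 5 of 22 endothelial genes were higher in the difference. The endothelial sum was 289 to 367 CPM in irradiated mice of 3 days, against 223 to 251 CPM in sham mice, and 266 to 275 CPM in irradiated mice of 4 h, against 244 to 267 CPM in sham mice.

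Transport genes of the surface epithelium, where called, mostly had the lower effect at 3 days. Of 31 genes of ion and water transport, 10 were lower and 1 was higher in the difference (median -0.52), with 3 up and 12 down at 3 days and 3 up and 2 down at 4 h. Scnn1b (ENSMUSG00000030873, chr7:129008591-129062029, plus strand), the beta subunit of the epithelial sodium channel, had 7.57, 9.18 and 11.97 CPM in irradiated rectum at 3 days, against 37.4, 24.5 and 50.5 CPM in sham rectum. It had 93.6, 78.03 and 93.9 CPM in irradiated rectum at 4 h, against 38.4, 51.02 and 44.2 CPM in sham rectum. The channel gene was thus the lowest in irradiated mice of 3 days and the highest in irradiated mice of 4 h, with both sham groups between and no overlap (difference -2.96 ± 0.33 SE, adjusted p = 0.000333). Its partner Scnn1g had effects of -2.06 and, not called, 0.46. Best2, a bicarbonate channel of colonic goblet cells, had 42.02, 35.96 and 39.02 CPM in irradiated rectum at 3 days, against 111, 126 and 136 CPM in sham rectum. It had 112, 107 and 104 CPM in irradiated rectum at 4 h, against 75.0, 74.5 and 104 CPM in sham rectum. Irradiated values were below all others at 3 days, and the effect at 4 h was not called (0.35, difference -2.02, adjusted p = 0.0001397). Slc6a14, an amino acid transporter, had a difference of -1.32, and Clca4a, of the chloride channel accessory family, was the 1 higher member (2.40, with an effect of 1.49 at 3 days). Other epithelial lists did not share this balance. Of 21 goblet cell genes 7 were higher and 1 lower in the difference (median 0.36). Of 22 brush border genes 4 were lower and 1 higher (median -0.01), and the number lower was 2 without irradiated replicate 1 or 3 at 3 days and with all 27 libraries in 1 fit.

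Detoxification and fuel genes, where called, were mostly lower in the difference. Of 55 genes of xenobiotic metabolism, 16 were lower and 3 higher in the difference (median -0.57), with 26 down and 5 up at 3 days and 8 down and 6 up at 4 h. Cyp4v3, a fatty acid hydroxylase, had 11.1, 10.5 and 11.1 CPM in irradiated rectum at 3 days, against 31.2, 29.5 and 32.9 CPM in sham rectum. It had 29.6, 28.5 and 28.8 CPM in irradiated rectum at 4 h, against 24.2, 21.6 and 23.01 CPM in sham rectum. The spread within groups was small enough for both effects to be called, in opposite directions (-1.52 and 0.34, difference -1.85, adjusted p = 1.77e-05), with a called sham difference of 0.44. Cyp3a13, a drug-oxidizing P450, and Cyp27a1, which oxidizes the side chain of cholesterol and is not in the list, were also opposite (-1.19 and -0.85 at 3 days, 0.74 and 0.87 at 4 h). Adh1, an alcohol dehydrogenase, fell by 1.98 on the log2 scale at 3 days, against an uncalled 0.01 at 4 h, and Cyp2f2 fell at both times, more at 3 days (-2.61 and -0.59). Ces2e, a carboxylesterase with close relatives that can share its reads, was higher in the difference (1.82), with an effect of 2.31 at 3 days.

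Of 21 genes of fatty acid oxidation and ketogenesis, 13 were lower and 0 higher in the difference (median -0.61), although the number was 8 with all 27 libraries in 1 fit. Pdk4, the kinase that turns mitochondria from glucose to fat, had 3.41, 4.93 and 7.46 CPM in irradiated rectum at 3 days, against 15.7, 7.204 and 7.61 CPM in sham rectum. It had 34.6, 23.3 and 35.8 CPM in irradiated rectum at 4 h, against 8.199, 12.1 and 6.69 CPM in sham rectum. It rose at 4 h (1.79), with an uncalled -0.95 at 3 days. Acadm and Hadhb, enzymes of the oxidation cycle, fell at 3 days (-0.91 and -0.60), against uncalled values of 0.02 and 0.26 at 4 h. Slc27a2, which activates long-chain fatty acids and is not in the list, had opposite effects (-1.68 and 1.74). Nuclear genes of the respiratory chain were called lower for 16 of 28 (median -0.54), with 18 down at 3 days and 0 at 4 h. Their shifts were small, such as -0.72 for the complex I subunit Ndufb9. Their count was 7 without irradiated replicate 1 and 10 without replicate 2 at 3 days, 9 without sham replicate 3 at 3 days or irradiated replicate 1 at 4 h, and 8 and 9 without sham replicates 1 and 3 at 4 h.

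Genes of lipid synthesis fell in part at 4 h. Of 24 genes of cholesterol synthesis, 6 fell and 1 rose at 3 days, 9 fell at 4 h, and 2 were higher and 0 lower in the difference. The number higher was 0 without irradiated replicate 2 or 3 or sham replicate 1 or 3 at 3 days or irradiated replicate 1 or 3 or sham replicate 1 or 2 at 4 h, and 4 without sham replicate 2 at 3 days or irradiated replicate 2 at 4 h. Of 15 genes of fatty acid synthesis, 2 fell at 3 days and 8 at 4 h, and 5 were higher in the difference, or 2 without irradiated replicate 2 at 3 days, irradiated replicate 3 at 4 h or sham replicate 1 at 4 h and 3 without sham replicate 2 at 4 h. Srebf1, the transcription factor of lipid synthesis, had 127, 153 and 129 CPM in irradiated rectum at 3 days, against 95.1, 144 and 104 CPM in sham rectum. It had 64.3, 78.6 and 56.8 CPM in irradiated rectum at 4 h, against 203, 184 and 149 CPM in sham rectum. The groups overlapped at 3 days and were far apart at 4 h (difference 1.68, adjusted p = 0.00145).

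Of 14 glucocorticoid-responsive genes, 6 were lower and 0 higher in the difference (median -0.85), with 6 down at 3 days and 5 up at 4 h, although the number was 3 with all 27 libraries in 1 fit. Fkbp5 (ENSMUSG00000024222, chr17:28536040-28654469, minus strand), a chaperone that holds back the glucocorticoid receptor and is induced by it, had 58.5, 52.1 and 67.8 CPM in irradiated rectum at 3 days, against 329, 249 and 286 CPM in sham rectum. It had 394, 323 and 322 CPM in irradiated rectum at 4 h, against 174, 239 and 217 CPM in sham rectum. Irradiated mice of 3 days were below, and irradiated mice of 4 h above, every sham mouse of their time (difference -3.0 ± 0.22 SE, adjusted p = 2.20e-05). Arrdc3, an arrestin-domain protein that is not in this list and was taken for its opposite effects, had 60.9, 65.5 and 57.5 CPM in irradiated rectum at 3 days, against 208, 175 and 175 CPM in sham rectum. It had 373, 297 and 284 CPM in irradiated rectum at 4 h, against 150.1, 201 and 152 CPM in sham rectum. Again the irradiated groups stood on either side of the sham mice without overlap (difference -2.52, adjusted p = 4.66e-05). Zbtb16, a zinc finger factor, had effects of -2.26 and, not called, 0.53.

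**Figure D4:**
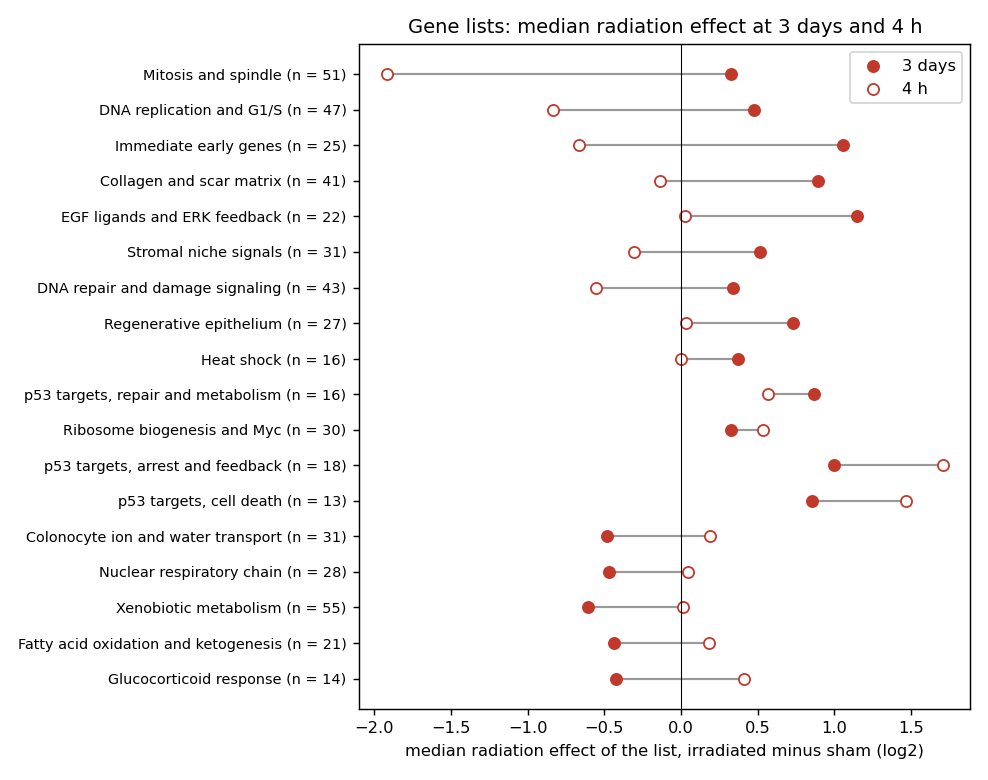
Median radiation effect (log2, irradiated minus sham) of 18 gene lists at 3 days (filled) and 4 h (open), with the number of tested genes in brackets, ordered from the highest difference of effects at the top. Mitosis and replication lie furthest to the left at 4 h (-1.92 and -0.84), and fatty acid oxidation, xenobiotic and glucocorticoid genes lie to the left at 3 days.

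Defense genes were called in both directions. Of 24 genes of the NF-kB response, 8 rose at 3 days and 6 at 4 h, with 3 higher and 4 lower in the difference, and the number lower was 1 without irradiated replicate 1 or 2 of 3 days, irradiated replicate 1 or 2 of 4 h or sham replicate 1 of 4 h, and 2 without irradiated replicate 3 or sham replicate 3 of 3 days. Icam1, the adhesion molecule for leukocytes, had 14.9, 18.9 and 23.04 CPM in irradiated rectum at 3 days, against 5.09, 4.14 and 11.6 CPM in sham rectum. It had 62.01, 80.7 and 50.99 CPM in irradiated rectum at 4 h, against 4.33, 2.92 and 7.24 CPM in sham rectum. It rose at both times, less at 3 days (difference -2.29, adjusted p = 0.0122). Cxcl5, a chemokine for neutrophils, had 14.6, 14.4 and 19.2 CPM in irradiated rectum at 3 days, against 1.21, 0.681 and 2.15 CPM in sham rectum. It had 1.81, 2.97 and 1.21 CPM in irradiated rectum at 4 h, against 1.91, 2.39 and 0.744 CPM in sham rectum. Its rise was called at 3 days only (difference 3.32, adjusted p = 0.00578). Of 15 genes of the acute phase and antimicrobial defense, 6 rose and 1 fell at 3 days, 6 rose and 0 fell at 4 h, and 2 were higher and 6 lower in the difference. The number lower was 3 without irradiated replicate 1 or 2 or sham replicate 3 at 3 days or irradiated replicate 2 at 4 h, and 1 with all 27 libraries in 1 fit. Lcn2, which withholds iron from bacteria, and Lbp, the binding protein of bacterial lipopolysaccharide, rose at 4 h (3.0 and 1.48), with uncalled values of 0.52 and -0.26 at 3 days. Reg4, a secreted lectin of the colonic crypt, had 1278, 1230.3 and 1045 CPM in irradiated rectum at 3 days, against 312, 371 and 284 CPM in sham rectum. It had 178, 177 and 167 CPM in irradiated rectum at 4 h, against 194, 160.3 and 273 CPM in sham rectum. The irradiated mice of 3 days stood far above the rest (difference 2.14, adjusted p = 0.000398). Tnf was under 3 CPM in every mouse and its difference of 1.0 ± 1.10 (SE) was not called. Cd44, the hyaluronan receptor, and Myc, the growth regulator, rose at both times (1.84 and 2.15 for Cd44, 2.09 and 1.16 for Myc). Neither difference was called (-0.31 and 0.93), but that of Myc was 1.19 and called without irradiated replicate 2 at 4 h and 1.14 and called without sham replicate 3 at 4 h, and with the replicate number as a block it was 0.93 and called.

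Several single genes had large differences of effects. Cma1 (ENSMUSG00000022225, chr14:56560290-56563498, minus strand), a chymase of mast cells, had 289.5, 337 and 234 CPM in irradiated rectum at 3 days, against 4.54, 3.55 and 4.44 CPM in sham rectum. It had 2.82, 3.77 and 4.93 CPM in irradiated rectum at 4 h, against 1.86, 2.44 and 2.48 CPM in sham rectum. The irradiated mice of 3 days were far above every other mouse, the effect at 4 h was small (0.76, adjusted p = 0.0489), and the difference was 5.34 ± 0.31 (SE, adjusted p = 5.39e-06). No other mast cell marker was called higher. Of 19 listed, 8 were tested: 1 was higher, namely Cma1, 1 lower, namely Mcpt1, and 6 were not called (median 0.16). The lack of calls does not show that these 6 were unchanged. Mcpt1 stayed at or below 0.906 CPM in all 12 mice and Hdc at or below 0.903 CPM. Kit had 21.7 to 39.7 CPM in irradiated mice of 3 days, against 29.4 to 50.1 CPM in sham mice. Ang4, an antimicrobial ribonuclease with close relatives that can share its reads, had 206, 127 and 179 CPM in irradiated rectum at 3 days, against 7.36, 9.64 and 2.097 CPM in sham rectum. It had 1.26, 0.855 and 1.86 CPM in irradiated rectum at 4 h, against 1.56, 0.731 and 9.22 CPM in sham rectum. It was high in the irradiated mice of 3 days alone (difference 6.27 ± 1.03 SE, adjusted p = 0.00247). Slc6a4, the serotonin transporter, had 7.57, 9.52 and 8.32 CPM in irradiated rectum at 3 days, against 66.9, 52.4 and 57.4 CPM in sham rectum. It had 45.8, 32.1 and 43.04 CPM in irradiated rectum at 4 h, against 28.7, 29.04 and 42.4 CPM in sham rectum. It fell at 3 days, had an uncalled 0.27 at 4 h, and its sham values were higher at 3 days (difference -3.07, adjusted p = 7.09e-05, sham difference 0.82).

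Slc16a3, an exporter of lactate, had 20.1, 23.04 and 23.1 CPM in irradiated rectum at 3 days, against 2.17, 5.35 and 5.22 CPM in sham rectum. It had 2.97, 2.82 and 3.32 CPM in irradiated rectum at 4 h, against 7.75, 9.26 and 7.69 CPM in sham rectum. The irradiated mice lay above the sham mice of 3 days and below the sham mice of 4 h (difference 3.81 ± 0.38 SE, adjusted p = 0.000151). Hk2, the inducible hexokinase of glycolysis, had a difference of 1.87, with a called effect of 1.24 at 3 days and an uncalled -0.64 at 4 h. Dhrs9, a retinol dehydrogenase, had 19.3, 18.5 and 21.9 CPM in irradiated rectum at 3 days, against 1.26, 2.39 and 2.24 CPM in sham rectum. It had 1.66, 1.21 and 2.27 CPM in irradiated rectum at 4 h, against 2.11, 6.82 and 4.26 CPM in sham rectum. Its rise at 3 days was the clearer part, since the groups of 4 h overlapped (3.34 and -1.36). The transcription factor Rfx2 and the tubulin-binding Tppp had opposite effects as well (1.79 and 1.66 at 3 days, -2.86 and -1.87 at 4 h).

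Marker lists of other cells that a piece of rectum can hold had few calls in the difference. Among the tested markers of neutrophils (4), eosinophils and basophils (3), T cells (16), MHC class II presentation (15), skeletal muscle (9) and adipocytes (11), edgeR called no member, with 3 at an unadjusted p under 0.05 and 1 called by DESeq2, and 1 of 20 macrophage and 1 of 20 B and plasma cell markers were called lower. The B and plasma cell member called by edgeR was Pigr, the epithelial receptor that exports IgA (-0.71, adjusted p = 0.0158). Median differences were 1.04 for eosinophils and basophils, 0.90 for neutrophils, 0.57 for T cells and -0.74 for MHC class II presentation, so the lack of calls does not show that these markers were unchanged. The summed T cell markers were 11.7, 10.9 and 48.2 CPM in irradiated mice of 3 days, against 13.5, 19.2 and 49.1 CPM in sham mice, so that replicate 3 was high in both groups. At 4 h the range was 13.4 to 17.97 CPM in irradiated mice, against 16.8 to 24.9 CPM in sham mice. The adipocyte markers summed to 91.9, 90.5 and 807 CPM in irradiated mice of 3 days, with replicate 3 high, against 171, 111 and 214 CPM in sham mice. The B and plasma cell sum was 2859.8 to 3131 CPM in irradiated mice of 3 days, against 3995 to 4876 CPM in sham mice. It was 4107 to 4818 CPM in irradiated mice of 4 h, against 4275 to 4573 CPM in sham mice. Irradiated mice were below all sham mice in this sum at 3 days, and the groups of 4 h overlapped. The members did not follow the sum at 4 h. Their median effect was -1.86 at 3 days, with 1 up and 2 down, and -2.62 at 4 h, with 0 called. Their mean log2(CPM + 0.5), counted from the sham mean of 4 h, was -1.83 to 1.63 in sham mice of 3 days. The part of Pigr in the sum was not tested. The part of these cells in the results above was not tested.

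The other times of the series place both effects on a longer course, as levels only. The mean log2(CPM + 0.5) of the 154 genes that were higher at 3 days and lower at 4 h, counted from the sham mean of 4 h, was -1.0 to -0.77 in irradiated mice of 4 h, -0.10 to 0.08 at 1 day, 0.50 to 0.60 at 3 days, 0.27 to 0.53 at 2 weeks and 0.08 to 0.38 at 8 weeks. The values at 4 h and 3 days chose these genes and the sham mice of 4 h are the zero point, so these levels are a description and not independent of the choice. For the 50 genes of the reverse pattern it was 0.55 to 0.68 at 4 h, -0.23 to 0.01 at 1 day, -0.48 to -0.44 at 3 days, -0.61 to -0.17 at 2 weeks and -0.68 to -0.38 at 8 weeks. In sham mice the 154 genes had -0.32 to -0.19 at 3 days and -0.08 to 0.10 at 4 h. The 50 genes had 0.17 to 0.31 in sham mice of 3 days and -0.02 to 0.03 in those of 4 h. Part of both opposite patterns thus lay in the controls, whose values also entered the choice of genes. Arrest targets of p53 had 1.68 to 1.94 at 4 h, 1.46 to 1.62 at 1 day, 1.33 to 1.51 at 3 days, 0.26 to 0.68 at 2 weeks and 0.30 to 0.41 at 8 weeks. The p53 targets of repair and metabolism had 0.75 to 1.14 at 4 h, 1.07 to 1.09 at 1 day, 1.12 to 1.23 at 3 days and 0.34 to 0.58 at 2 weeks. Collagen and scar matrix had 0.25 to 0.45 in irradiated mice of 3 days, 2.56 to 3.42 at 2 weeks and 2.32 to 2.55 at 8 weeks, against -0.66 to -0.39, -0.09 to 0.59 and -0.24 to 0.10 in the sham mice of these times. The matrix level of 3 days was thus near that of the sham mice of 4 h and far below that of the later irradiated mice.

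**Figure D5:**
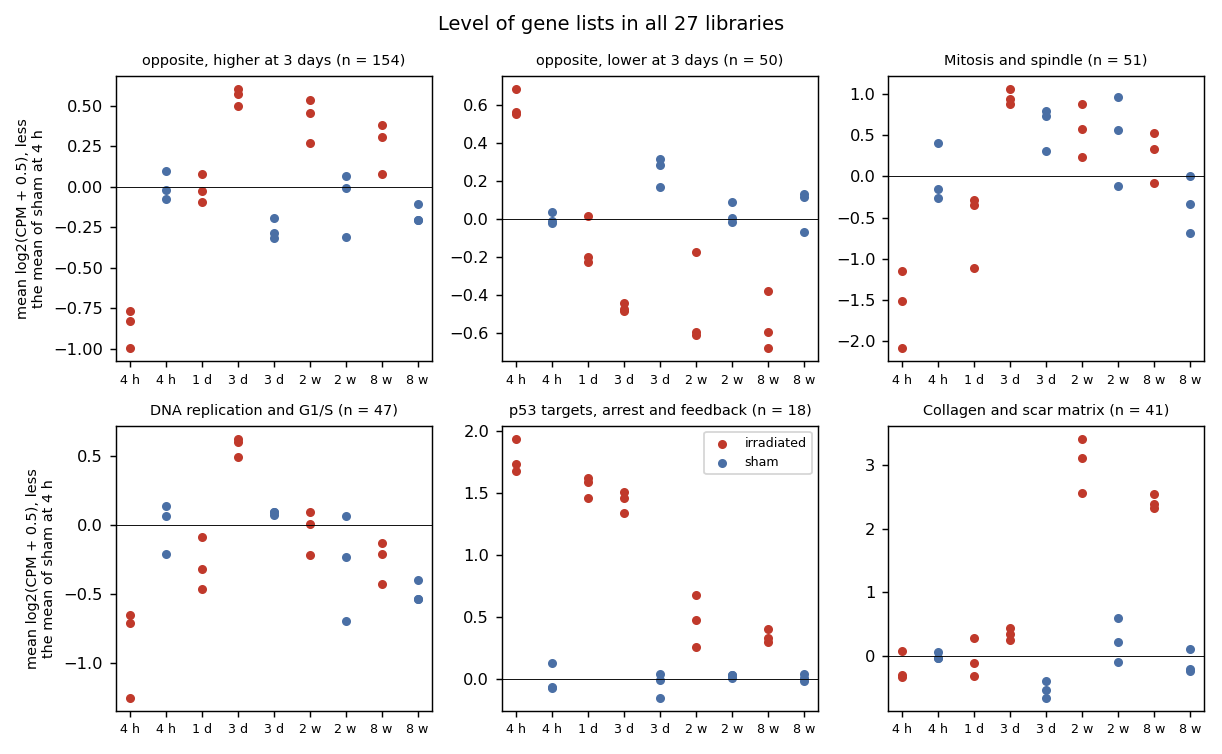
Mean log2(CPM + 0.5) of 6 gene sets in all 27 mice, less the mean of the sham mice of 4 h, with irradiated mice in red and sham mice in blue, by time after irradiation. The study used the sham mice of 4 h as controls of 1 day too. The sets with opposite effects cross from one side of the zero line to the other between 4 h and 3 days, and the collagen set is highest at 2 weeks (2.56 to 3.42) and 8 weeks.

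Single genes differed in how long the state of 3 days lasted. Cma1 had 30.4, 41.1 and 60.8 CPM in irradiated mice of 1 day and 6.51, 4.26 and 3.48 CPM at 2 weeks. The chymase peak thus belonged to 3 days. Dhrs9 had 6.01, 8.73 and 7.27 CPM in irradiated mice of 1 day, 106, 58.6 and 185 CPM at 2 weeks and 60.8, 96.7 and 55.2 CPM at 8 weeks. Icam1, lower at 3 days than at 4 h, had 11.2, 13.9 and 7.06 CPM in irradiated mice of 1 day, 109.9, 35.8 and 230.2 CPM at 2 weeks and 28.1, 42.2 and 27.7 CPM at 8 weeks. At 8 weeks both genes stood above the sham mice, which had 3.305, 4.06 and 2.16 CPM of Dhrs9 and 3.06, 5.45 and 3.56 CPM of Icam1. Sulf2 had 68.4, 95.6 and 92.7 CPM in irradiated mice of 8 weeks, against 12.2, 10.4 and 11.1 CPM in sham mice.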

How the data were processed

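RNA of rectal tissue was read by poly(A) sequencing (paired-end, a kit that does not mark strand), so overlapping or antisense genes cannot be told apart. The authors deposited whole read counts per gene and, for the same rows, FPKM values, and the processing notes name fastp 0.18.0, HISAT2, mm9, StringTie 1.3.1 and RSEM. The sources named no counting program (not given in the sources used here). FPKM served as an alternative only, as log2(FPKM + 1). Counts were used as deposited, with edgeR 4.0.16 in R 4.3.3 (filterByExpr, TMM scaling, quasi-likelihood test, 4 groups without a block, Benjamini-Hochberg adjustment over 14962 genes). CPM are TMM-scaled. The labels gave groups and replicate numbers, and per the study's methods the replicates were separate mice. No library pair agreed within sampling noise. At 3 days same-numbered irradiated and sham libraries deviated together (r = 0.38, 0.45 and 0.47 across genes), and at 4 h they did not (r = -0.27, 0.10 and 0.13). Across the times, same-numbered sham libraries of 3 days and 4 h had r = 0.02, 0.27 and 0.23. Irradiated libraries of 3 days and sham libraries of 4 h had r = 0.06, 0.28 and 0.20. Irradiated libraries of 4 h had r from -0.035 to 0.16 with those of 3 days. The pairing thus comes from the data. Within a time it was seen at 3 days only, and what the replicate number marks is not given in the labels.

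Gene lists (45, with 1135 of 1175 entries matched), the naming rule and the genes were chosen with earlier results of these data known. The rule took, in the difference of effects, the 10 highest and 10 lowest non-overlapping called genes with a mean of at least 1 CPM, the 10 strongest opposite genes each way, up to 6 members of each list by p and the genes the study names, 293 in all. Some genes that the rule took are not reported here. Kif23, Ube2c, Mcm3 and Dusp4 lay outside it and were chosen after their values were seen. Kit, a member of the mast cell list, lay outside the rule as well. Promoters came from RefSeq (GRCm38.p6), and gene positions from GENCODE M1 (mm9). On simulated data (14794 genes), the test of the difference found 4.48% of 67 genes changed 1.5-fold, 34.3% of 67 changed 2-fold and 75.8% of 66 changed 4-fold, with 3 false calls among 14594 genes. The simulation changed few genes, only in irradiated mice of 3 days, and drew all libraries independently. In the data 17.5% of genes were called, so the simulated shares do not give the recovery there. Alternatives were other scalings and filters, DESeq2 1.42.0, limma 3.58.1 on FPKM, all 27 libraries, the replicate block, each library left out and, chosen after seeing the data, both sham groups as 1 reference.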

Additional observations from a re-analysis of the deposited data

Results flagged for a closer look

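The test of the difference between the radiation effects of 3 days and 4 h called 2623 genes, and 204 of them had called effects of opposite sign. Among the genes named above, those higher in irradiated mice at 3 days and lower at 4 h had these log2 differences. In the cell cycle and repair they were Ect2 2.74, Kif23 1.74, Incenp 1.42, Ube2c 2.34, E2f1 3.01, E2f2 2.84, Mcm3 2.21, Chaf1a 2.19, Dbf4 1.83, Rad54l 2.54, Timeless 2.14, H2afx 1.66 and Plk3 2.48. In stress and growth factor signaling they were Nr4a1 5.12, Jund 2.19, Dusp4 2.22 and Hspa4l 1.22. In the stroma and wound genes they were Ctgf 3.27, Il33 2.74, Tnc 1.85 and Grem1 1.66, and for single genes Slc16a3 3.81, Dhrs9 4.70, Rfx2 4.65 and Tppp 3.53. The genes with the reverse pattern were Fkbp5 (-3.0), Arrdc3 (-2.52), Scnn1b (-2.96), Slc27a2 (-3.43), Cyp3a13 (-1.93), Cyp4v3 (-1.85) and Cyp27a1 (-1.72).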

How the results depend on the processing

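The difference of effects gave 2623 calls, 1710 to 2742 with 1 library left out, 1727 with log2(FPKM + 1) without a minimum and 4118 with both sham groups as 1 reference, where the shams cancel and the test is that of irradiated mice of 3 days against irradiated mice of 4 h. The 204 opposite genes were 103 to 216 with 1 library left out, 323 with DESeq2, which held 203 of the 204, and 130 with log2(FPKM + 1) without a minimum. With both shams as 1 reference, 129 of the 204 were shared. The effect at 3 days had 2300 to 3586 calls with 1 library left out, and the effect at 4 h 1194 to 2033, or 2929 with both shams as 1 reference. The sham groups differed in 229 genes, 5 to 1439 with 1 library left out, 1224 with DESeq2, 42 with all 27 libraries, 116 and 115 with log2(FPKM + 1) and log2(FPKM + 0.1), 0 by limma on log2(FPKM + 1) without a minimum, where 3195 had an unadjusted p under 0.05, and 352 with the replicate block over both times. The FPKM fit without a minimum tests more low genes. For the other changes the cause was not tested. The difference of effects for Trp53, not called, was -0.20 to 0.048 with 1 library left out (0.0076 without sham replicate 2 of 3 days, 0.048 without irradiated replicate 2 of 4 h) and 0.13 with both shams as 1 reference. With the replicate block within each time, the difference had 2790 calls and 258 opposite genes, the effect at 3 days 3827 and the effect at 4 h 2007, and over both times 3002, 259, 3912 and 2085. Among the genes named, the block changed the call of Myc alone. Over all alternatives, values of the named genes kept sign and call in 2392 cases, lost the call in 14, gained it in 9 and changed sign in 3. Counts of called list members moved by more than 1.5-fold, or to or from 0, in 156 cases and did not in 924. The main counts moved so in 28 cases and did not in 90. Lost calls were those of Pttg1, Aen, Pif1, Ppm1d and Clca4a with FPKM, Fas, Cyr61, Hspa1a, Pdk4 and Lcn2 with all 27 libraries, and Ak1 with both shams as 1 reference. Depth and 3 mice per group limit small effects and genes with few reads.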
